A study of Mus musculus with 5 samples.

Results

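Primary cultures from Dlx1/2 mutant medial ganglionic eminence (MGE) were compared here with the uncultured mutant tissue, gene by gene. The comparison takes 3 of the 5 arrays of the series, chosen by their labels alone: 1 array of cultured mutant cells and 2 arrays of mutant tissue, while the 2 wild-type arrays were not used. All 3 carry total RNA of mouse forebrain at E15.5, counted in days after conception, from embryos mutant for both Dlx1 and Dlx2, and all trace to the rostral MGE, namely its ventricular and subventricular zones. The tissue arrays hold that dissected zone itself, and the culture array holds primary neuronal cultures prepared from it. The labels give no allele, strain, days in culture or medium, and leave unsaid whether the tissue arrays came from different embryos, so the p-values measure a spread between arrays that may be technical. The spread of cultures was not measured, and the culture array was assumed to vary like the tissue arrays.

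The MGE is a transient swelling of the embryonic ventral forebrain whose dividing cells give rise to many cortical and striatal interneurons and to cholinergic neurons of the basal forebrain. Nkx2-1 sets MGE identity there and acts through Lhx6 and Lhx8, while Notch signalling, read out by Hes5, holds neighbouring cells in the progenitor state. Dlx1 and Dlx2 encode homeodomain factors that promote differentiation and migration of GABAergic neurons. Primary culture dissociates such tissue and plates its cells on a flat support, away from blood flow and from the local sources of signals.

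Each array carried 45101 probe sets with deposited linear intensity values, called signal below. The 2 tissue arrays had median signals of 28.2 and 27.8, and the culture array 27.0. Of 18193 named genes, each read by its brightest probe set, 11139 were bright enough to test. Values given per array are deposited signals, in the order tissue array 1, tissue array 2, culture. Differences are culture minus the mean of the tissue arrays on the log2 scale after quantile normalization, with the standard error of the limma fit. A gene is said to have risen or fallen where limma's Benjamini-Hochberg adjusted p was below 0.05. Values below a common floor (2.36 on the log2 scale) were raised to it, and a fold against an array at the floor is a lower bound.

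The culture array stood much farther from the tissue arrays than these stood from each other. The difference between the tissue arrays had an SD of 0.318 over the genes tested, and the culture difference an SD of 0.847. Across genes, which are not independent replicates, Pearson's r was 0.986 between the tissue arrays and 0.896 between their mean and the culture. By limma, 2483 genes were higher in culture (22.3% of those tested) and 2528 lower (22.7%), together 45% of genes. Counts of called genes in each list below are read against these shares. With a difference of at least 2-fold as well, 956 were higher (8.58%) and 711 lower (6.38%). By values alone, 803 genes lay at least 2-fold above both tissue arrays (7.21%) and 580 at least 2-fold below both (5.21%). The split is relative to the scaling: 49.6% of calls were higher here, and 61.4% when arrays were centred on their medians, which moved the median of all genes by 0.117. The calls depend on leaving out dim genes: with all 18193 genes tested 598 were called higher and 99 lower, and most genes named below then missed the threshold.

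**Figure D1:**
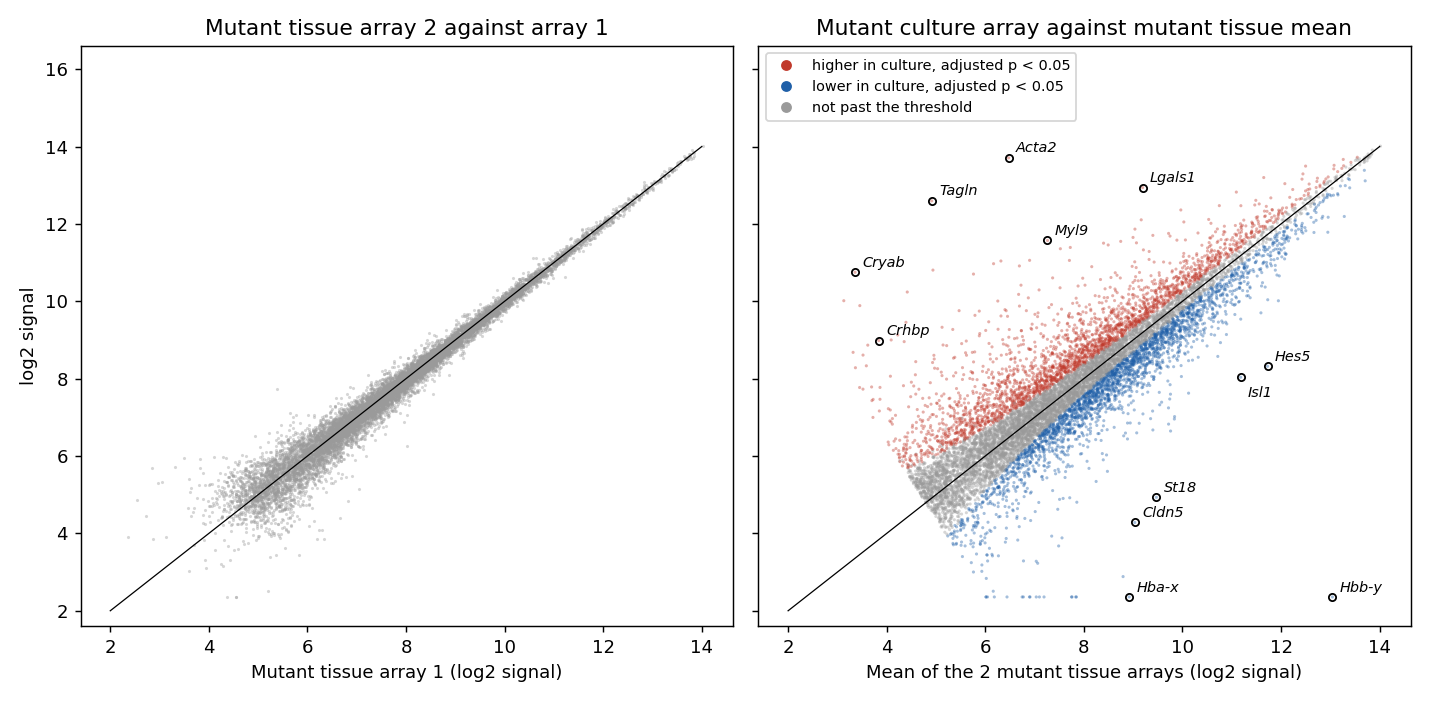
Each point is 1 of the 11139 tested genes on the log2 scale (quantile normalized signal): tissue array 2 against tissue array 1 on the left, the culture array against the mean of the tissue arrays on the right, with the line of equality. The tissue arrays hug the line, while contractile genes such as Acta2 and Tagln lie far above it in culture and globin genes such as Hbb-y lie at the floor.

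**Figure D2:**
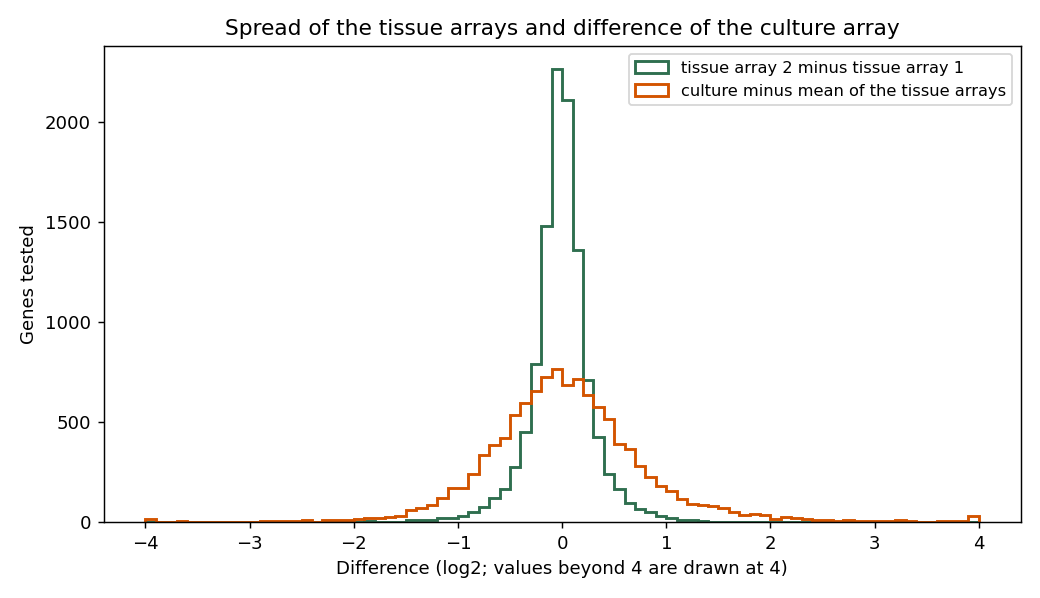
Histogram over the 11139 tested genes of the difference between the tissue arrays (green) and of the culture array from their mean (orange), in bins of log2 difference. The culture distribution is the wider, with an SD of 0.847 against 0.318.

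The mutated genes were checked first. Dlx1 had signals of 2.80, 0.921 and 1.26, all at the floor, and its opposite-strand RNA Dlx1as 1.88, 1.58 and 2.31, also all at the floor. Dlx2 read 18.7, 11.7 and 21.7, and Dlx6 read 4.14, 6.56 and 2.77, both too dim to test. Dlx5, which lies beside Dlx6 and is a known target of Dlx1 and Dlx2, read 55.0, 43.4 and 28.2 and missed the threshold (−0.73 ± 0.40, adjusted p = 0.15). The non-coding Dlx6os1 read 68.7 and 51.0 in tissue and lay at the floor in culture (1.53), and was too dim on average to test. Both mutated genes were thus at the floor or too dim to test in these arrays, and whether their probe sets lie in the deleted stretch is not stated in the labels.

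The strongest rise was in genes of smooth-muscle-type contraction. Tagln, the actin-binding protein transgelin, had signals of 29.5 and 31.6 in tissue and 6487 in culture, a 205-fold difference (7.68 ± 0.18, adjusted p = 2.8e-13). Acta2, smooth-muscle alpha-actin, read 86.4 and 94.9 in tissue and 14086 in culture, 150-fold higher (7.23 ± 0.12, adjusted p = 4.0e-15). The culture value was among the brightest on the array in both cases and far outside the tissue range. Myl9, a regulatory light chain of non-muscle and smooth-muscle myosin, read 158, 156 and 3193 (4.31 ± 0.12, adjusted p = 3.3e-12). Cnn1, smooth-muscle calponin, was at the floor in both tissue arrays (1.96 and 3.78) and read 72.7 in culture, but was too dim on average to test. These 4 genes are usual markers of smooth muscle, and are also switched on in myofibroblasts and other spread cells.

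Genes of a further list, chosen like all lists with earlier results of these data known, were mostly higher too. This list holds 22 target genes of the serum response factor SRF, which senses the actin cytoskeleton, and of YAP, the effector of the Hippo pathway. Of its members 21 had a probe set and 20 were tested, and 18 rose, 17 of them by at least 2-fold, while 0 fell (median 2.89, against 0.00 over all genes tested). Cnn2, another calponin, read 73.0, 89.6 and 2190 (4.72 ± 0.17), and Tpm1, a tropomyosin of actin filaments, 95.4, 117 and 1997 (4.22 ± 0.16). The secreted CCN proteins are standard YAP readouts. Ccn1 read 252, 180 and 2211 (3.35 ± 0.17, adjusted p = 1.0e-09), and Ccn2 63.3, 56.4 and 862 (3.87 ± 0.20, adjusted p = 1.6e-09). Thbs1, the matrix protein thrombospondin, read 37.2, 33.6 and 635 (4.20 ± 0.25). In each of these the culture array exceeded both tissue arrays by several times their gap. The annexin Anxa1 had the largest rise of the list, from 12.1 and 7.94 to 400 (5.36 ± 0.45). Its relative Anxa2 was bright in tissue already and went from 533 and 528 to 4000 (2.83 ± 0.09). Lgals1, a galectin, went from 597 and 581 to 8303 (3.75 ± 0.09, adjusted p = 2.8e-13). Focal adhesion and actin cross-linking genes were also higher: Vcl by 2.27, Flna by 2.17, Actn1 by 2.73 and Zyx by 1.07. The 2 tested members that missed the threshold were Axl (62.5, 89.3, 99.1) and Amotl2 (337, 396, 430). For Cald1, a caldesmon, the probe sets were split, with 3 higher in culture by 1.72 to 1.92 and 1 lower.

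**Figure D3:**
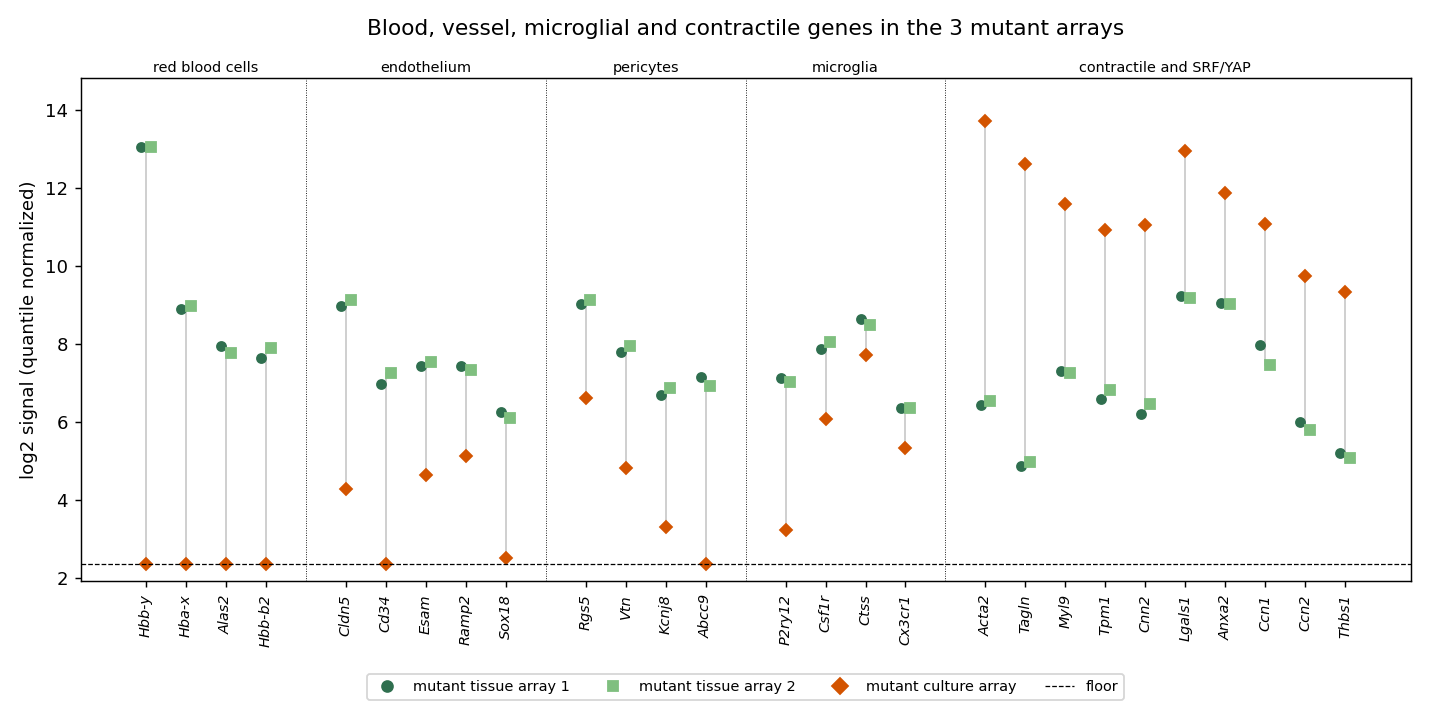
Quantile normalized log2 signal of selected genes in the 3 mutant arrays (tissue array 1 circles, tissue array 2 squares, culture diamonds), grouped by cell type or response, with the floor dashed. The tissue arrays lie close together in every gene shown, red blood cell genes are at the floor in culture, and contractile genes are far above tissue.

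Genes of red blood cells fell in culture. Of 19 listed, 13 had a probe set and 7 were tested, and all 7 tested fell by at least 2-fold (median −5.40, with members at the floor held at their bound). Hbb-y, an embryonic beta-type globin, had signals of 8842 and 7771 in tissue and 3.98 in culture, at least 1647-fold lower (adjusted p = 3.0e-18). Hba-x, the embryonic zeta-type globin, read 471, 504 and 2.51, at least 94.5-fold lower. Alas2, the red-cell enzyme of haem synthesis, read 245, 225 and 1.54, at least 45.0-fold lower. The culture array was at the floor for each of these, and the tissue arrays differed little from each other. The summed signal of the 13 genes was 10022 and 9010 in tissue and 99.9 in culture, with 9 of the 13 at the floor there. In such bulk RNA, fewer cells of a type and less RNA per cell cannot be told apart, here and for every cell type below.

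Many endothelial genes fell too. Of 24 endothelial markers, 22 had a probe set and 12 were tested. Of these, 7 fell (58.3%, against 22.7% over all genes), all by at least 2-fold, and 0 rose (median −2.01). Cldn5, the tight-junction protein of brain endothelium, read 501, 558 and 19.4 (−4.75 ± 0.18, adjusted p = 5.8e-11). Cd34, a surface protein of endothelial and blood progenitor cells, read 125 and 156 in tissue and lay at the floor in culture (3.30), at least 26.7-fold lower. The transcription factor Sox18 went from 75.7 and 69.9 to 6.22 (−3.66 ± 0.46) and the adhesion protein Esam from 172 and 190 to 24.2 (−2.85 ± 0.25). Pecam1, the defining surface marker CD31, was too dim on average to test, at 50.2 and 45.5 in tissue and the floor in culture (2.60). Kdr, a receptor for the vessel growth factor VEGF, did not follow and read 104, 129 and 135 (0.30 ± 0.22, adjusted p = 0.29). The markers Flt1, Eng, Egfl7 and Sox17 had no call either, with differences of −0.36, −0.20, −0.58 and −0.51. The summed signal of the list was 1723 and 1917 in tissue and 467 in culture, where 5 of 22 genes were at the floor. Aplnr, the apelin receptor of sprouting vessels, was among the 12 strongest falls of all genes, from 462 and 436 to 7.90 (−5.91 ± 0.22, adjusted p = 5.0e-11).

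Markers of mural cells, which wrap vessels, split by kind. Of 14 pericyte and smooth muscle markers, all had a probe set and 11 were tested: 4 rose and 6 fell, all 6 by at least 2-fold. The list median of −2.01 turned to 4.31 when genes below the 75th percentile were left out. Those that fell are pericyte genes. Rgs5, a regulator of G-protein signalling, read 522, 563 and 93.3 (−2.47 ± 0.14, adjusted p = 4.5e-09), and the secreted protein Vtn read 221, 251 and 27.3 (−3.05 ± 0.22). Abcc9 and Kcnj8, the paired subunits of a pericyte potassium channel, fell together, Abcc9 from 143 and 125 to the floor (2.93) and Kcnj8 from 102 and 121 to 10.2 (−3.49 ± 0.35). Those that rose were the contractile genes Tagln, Acta2 and Myl9 described above and, by 0.59, Pdgfrb, a growth factor receptor of pericytes and fibroblasts (121, 124, 174, adjusted p = 0.026), whose call was lost when probe sets were averaged. The summed signal of the list was 1560 and 1649 in tissue and 24200 in culture, nearly all of it in the contractile genes. The part that vessel or mural cells have in the rise of Tagln and Acta2 was not tested.

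Microglial genes were lower in part. Of 20 microglia and macrophage markers, 14 were tested, 6 fell (42.9%, against 22.7% over all genes) and 0 rose (median −0.37). P2ry12, the purinergic receptor typical of resting microglia, went from 139 and 134 to 9.84 (−3.83 ± 0.33, adjusted p = 3.0e-07). Csf1r, the receptor microglia need to survive, went from 237 and 269 to 64.5 (−1.89 ± 0.19) and Cx3cr1, a chemokine receptor, from 82.5 and 84.3 to 38.5 (−1.03 ± 0.30). Other markers did not pass: Tyrobp, an adaptor of myeloid receptors, read 128, 126 and 152, and the lysosomal Cd68 31.8, 31.3 and 60.01. The summed signal was 1750 and 1774 in tissue and 1106 in culture.

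Astrocyte markers moved in both directions, with more of them higher. Of 21 listed, 17 were tested, of which 10 rose (58.8%) and 6 fell (35.3%), against 22.3% and 22.7% over all genes (median 0.72). Clu, the secreted chaperone clusterin, read 441, 427 and 3129 (2.80 ± 0.10, adjusted p = 2.7e-11). Gja1, the gap junction protein connexin 43, read 609, 581 and 2680 (2.12 ± 0.10), and the protease inhibitor Cst3 3158, 3051 and 9776 (1.55 ± 0.07). Cd44, a hyaluronan receptor of immature astrocytes and many adherent cells, rose from 28.6 and 30.4 to 175 (2.64 ± 0.33). Aldh1l1, a folate enzyme used as a general astrocyte marker, rose by 1.5 and the water channel Aqp4 by 1.10. Against these, Aldoc fell by 1.11, Sparcl1 by 0.82 and Glul, glutamine synthetase, by 0.51. Gfap, the filament protein of mature astrocytes, was dim in every array (5.78, 14.3, 15.9) and was not tested. The summed signal was 11041 and 10644 in tissue and 22181 in culture.

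Genes of the oligodendrocyte lineage were lower in part. Of 19 genes, 11 were tested, 5 fell and 0 rose (45.5% lower, against 22.7% over all genes, median −0.60). Olig2, the basic helix-loop-helix factor that specifies the lineage, read 840, 878 and 222 (−1.91 ± 0.11, adjusted p = 6.0e-09), while its neighbour and relative Olig1 read 923, 868 and 789 and did not pass (−0.19 ± 0.10, adjusted p = 0.14). Pdgfra, the growth factor receptor of oligodendrocyte precursors, read 435, 405 and 145 (−1.45 ± 0.14). Gpr17, a receptor of cells entering differentiation, read 61.4, 60.9 and 15.4 (−1.98 ± 0.41). The myelin genes Cnp (611, 641, 545) and Mbp (161, 170, 124), and Sox10 (53.5, 52.3, 29.1), had no call. The summed signal of the 18 genes with a probe set was 4820 and 4831 in tissue and 3138 in culture.

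Fibroblast and choroid markers were mostly dim. Of 15 fibroblast and meningeal markers 6 were tested, 2 rose and 2 fell. Ogn, the small proteoglycan osteoglycin, rose from 126 and 113 to 1111 (3.21 ± 0.16, adjusted p = 9.0e-10), and the collagen Col1a2 from 38.5 and 27.7 to 158 (2.36 ± 0.34). The growth factor Igf2, made by meninges and vessels, was bright in tissue (189 and 284) and at the floor in culture (3.33), at least 44.6-fold lower. The defining matrix genes Lum and Dcn stayed under 33.0 in signal in every array, and the summed signal of the list was 722 and 869 in tissue and 1678 in culture. Of 9 choroid plexus and ependymal markers, 4 were tested, 2 rose and 0 fell. They were Foxj1, the factor for motile cilia (33.5, 52.2, 261), and the folate receptor Folr1 (13.0, 25.3, 84.2), whereas Ttr, the most abundant choroid transcript, read 6.30, 0.523 and 1.59. The summed signal of the choroid list was 527 and 516 in tissue and 779 in culture. The part of each of these cell types in the other results was not tested.

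Transcription factors that mark the MGE and its interneurons were broadly lower in culture. Of 22 listed, 17 had a probe set and 15 were tested: 13 fell, 11 of them by at least 2-fold, and 1 rose (median −1.41). St18, a zinc-finger factor of MGE-derived projection neurons, read 751, 676 and 29.7, a 23.2-fold difference (−4.54 ± 0.16, adjusted p = 2.3e-11). Lhx8, the LIM-homeodomain factor of cholinergic neurons, read 168, 164 and 15.46 (−3.42 ± 0.28, adjusted p = 1.8e-07). Nkx2-1 read 60.6, 78.4 and 12.6 (−2.47 ± 0.41, adjusted p = 0.00019). In all 3 genes the culture array was clear of both tissue arrays by at least 2-fold. Lhx6, which directs migration and specification of interneurons, fell less, from 895 and 924 to 374 (−1.25 ± 0.10). Its partner in later maturation, Sox6, went from 807 and 889 to 481 (−0.79 ± 0.11), and Satb1 from 760 and 735 to 276 (−1.40 ± 0.11). The Gsx factors of ganglionic eminence progenitors fell as well. Gsx2 read 309, 307 and 39.1 (−2.91 ± 0.19) and Gsx1 479, 488 and 152 (−1.59 ± 0.13). Prox1, a homeodomain factor of cells leaving the cycle, read 196, 195 and 29.1 (−2.68 ± 0.23). The nuclear receptor Nr2f1, bright in all arrays, read 3852, 3861 and 1671 (−1.31 ± 0.07). Maf was the 1 member that rose: this factor of MGE-derived interneurons went from 120 and 146 to 446 (1.81 ± 0.18, adjusted p = 1.1e-06). Npas3 (337, 378, 401) had no call (0.22 ± 0.13), and Npas1 (2.81, 7.53, 38.5) and Sp8 (12.8, 6.30, 11.9) were too dim to test.

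**Figure D4:**
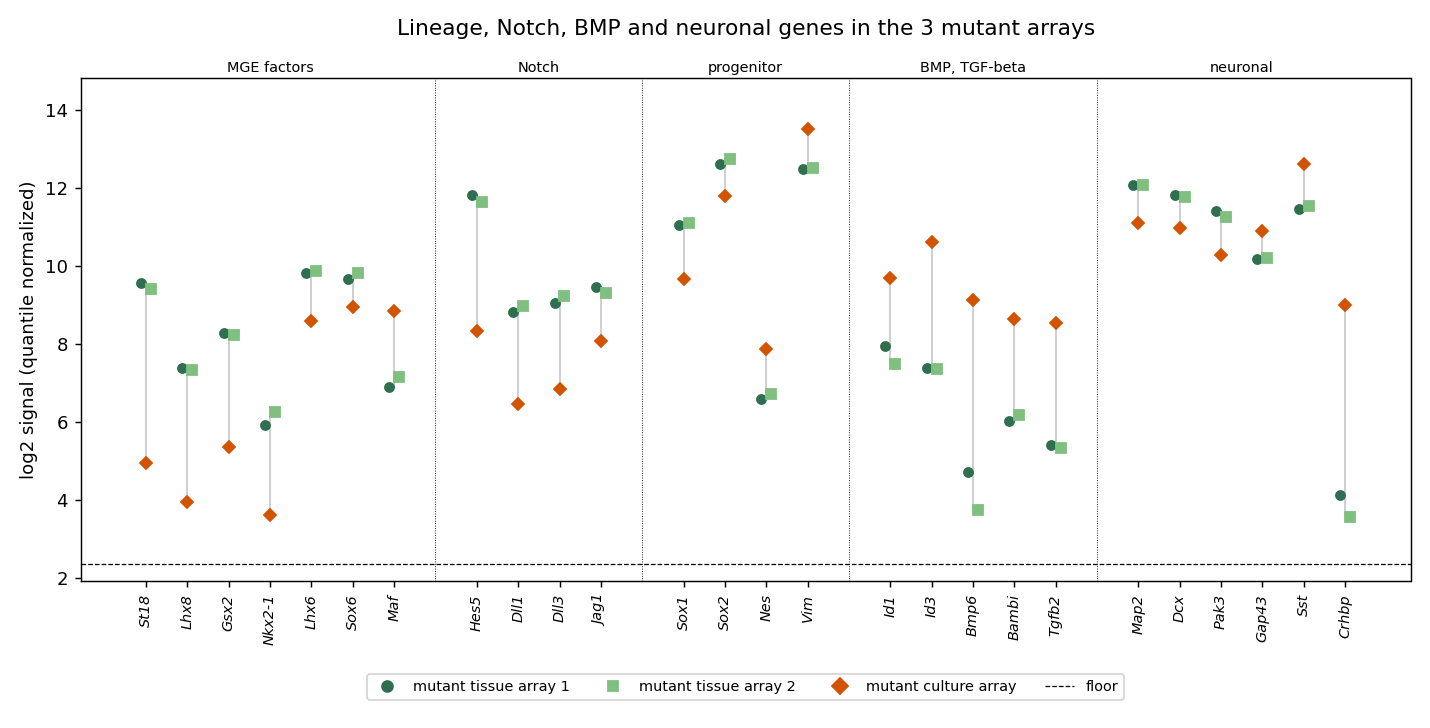
Quantile normalized log2 signal in the 3 mutant arrays (tissue array 1 circles, tissue array 2 squares, culture diamonds) for MGE factors, Notch genes, progenitor genes, BMP and TGF-beta genes and neuronal genes. All MGE factors shown other than Maf, and all Notch genes shown, lie lower in culture, and the BMP and TGF-beta genes shown lie higher.

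Some factors of neighbouring territories also fell. Of 20 striatal genes 13 were tested, 5 fell (38.5%, against 22.7% over all genes) and 1 rose (7.69%, against 22.3%, median −0.30). Isl1, a LIM-homeodomain factor of striatal projection and cholinergic neurons, read 2296, 2232 and 254 (−3.14 ± 0.09, adjusted p = 3.3e-12). Ebf1 read 109, 96.3 and 24.5 (−2.01 ± 0.31), while Bcl11b, also called CTIP2, read 2699, 2471 and 1364 (−1.0 ± 0.08). The opioid precursor Penk was the member that rose, at a dim level (35.5, 32.8, 73.3, adjusted p = 0.019). Foxp1 and the neuropeptide precursor Tac1 did not pass, with culture values of 205 against 171 and 220, and of 139 against 181 and 167. Of 14 septal, preoptic and diencephalic genes 7 were tested, 4 fell and 0 rose. Otp, a factor of hypothalamic neurons, read 844, 982 and 125 (−2.82 ± 0.13, adjusted p = 3.7e-10), although the call was lost when probe sets were averaged. Zic1 read 596, 611 and 262 (−1.15 ± 0.12). Lhx2, in contrast, read 840, 867 and 821 (−0.06 ± 0.10, adjusted p = 0.65). Of 15 pallial genes 7 were tested, 2 fell and 0 rose, a lower share of 28.6% that is near the 22.7% over all genes. Neurog2, the proneural factor of cortical progenitors, went from 71.6 and 60.5 to just under the floor (5.07), at least 12.6-fold lower.

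The GABA system did not move as a block. Gad1 and Gad2 encode the enzymes that make GABA. Gad1 rose from 518 and 522 to 901 (0.80 ± 0.11, adjusted p = 2.6e-05), and Gad2 fell from 408 and 404 to 223 (−0.80 ± 0.13, adjusted p = 0.00020). The tissue arrays agreed closely on both, so the opposite directions were well outside their gap. Slc32a1, the vesicular GABA transporter, was too dim to test in these mutant arrays (29.4, 19.3, 16.2). Slc6a11, a GABA uptake carrier, fell from 54.8 and 76.4 to 15.0 (−2.10 ± 0.41), and the glutamine carrier Slc38a1 by 0.55. Of 8 listed genes 5 were tested, 1 rose and 3 fell. Among 13 interneuron peptides and markers 8 were tested, 2 rose and 2 fell (25% each, near the 22.3% and 22.7% over all genes). The somatostatin precursor Sst was already bright and rose from 2793 and 2828 to 6574 (1.12 ± 0.07, adjusted p = 1.6e-08). Crhbp, the binding protein of corticotropin-releasing hormone, which MGE-derived interneurons make, rose from 17.6 and 11.5 to 499 (5.15 ± 0.38, adjusted p = 7.0e-08). Neuropeptide Y differed little: Npy read 4754, 4424 and 3908 (−0.37 ± 0.07, adjusted p = 0.00041), a call lost under the deposited and the median-centred scaling. Htr3a, the serotonin receptor of interneurons from another eminence, fell from 113 and 113 to 42.5 (−1.33 ± 0.26). Nxph1 and Calb1 did not pass.

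Progenitor genes moved in both directions. All 35 listed genes were tested: 10 rose and 13 fell (28.6% and 37.1%, against 22.3% and 22.7% over all genes), and the median was 0.02, with a sign that changed under 4 of the alternatives. Hes5, the transcriptional repressor through which Notch acts in neural progenitors, read 3581, 3037 and 310, a 10.6-fold difference (−3.41 ± 0.09, adjusted p = 1.9e-12). The Notch ligands Dll1 (448, 507, 84.0) and Dll3 (527, 599, 111) fell by 2.44 ± 0.15 and 2.28 ± 0.14. A further ligand, Jag1, went from 703 and 633 to 259 (−1.32 ± 0.12). Receptors moved less and not together, Notch1 by −0.79 and Notch2 by 0.81, both past the threshold, and Notch3 by 0.12, which did not pass. Hes1, the other main Hes gene, read 94.0, 92.6 and 89.2 (0.02 ± 0.25, adjusted p = 0.97), and Hey1 (309, 305, 364) and the Notch-modifying enzyme Lfng (135, 135, 128) had no call either. The neural stem cell factors Sox1 (2081, 2109, 808) and Sox2 (6319, 6274, 3773) fell by 1.41 ± 0.08 and 0.89 ± 0.07. Some genes of radial glia rose: Slc1a3, the glutamate carrier GLAST, from 180 and 188 to 697 (1.95 ± 0.14), the filament gene Vim from 5814 and 5486 to 12184 (1.0 ± 0.06) and Fabp7 by 0.40. The intermediate filament Nes rose from 96.2 and 108 to 226 (1.23 ± 0.21), a call that averaging its probe sets removed. Others did not rise: the endothelin receptor Ednrb fell from 1908 and 1978 to 1527 (−0.42 ± 0.08), and Hopx (35.8, 40.1, 65.5), Tnc (43.0, 18.8, 29.8), Ttyh1 (678, 716, 732), Sox9 (240, 278, 188) and Pax6 (40.6, 40.0, 26.9) had no call.

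The window upstream of Hes5 is shown because this gene had the largest fall of the progenitor list and is the textbook target of RBPJ, the DNA-binding partner of activated Notch. It covers the 250 bases before the RefSeq start of the gene, chr4:154960673-154960922 on the plus strand of GRCm38.p6, 5′ to 3′, with capitals at each match to the RBPJ motif GTGGGAA on either strand.
Hes5: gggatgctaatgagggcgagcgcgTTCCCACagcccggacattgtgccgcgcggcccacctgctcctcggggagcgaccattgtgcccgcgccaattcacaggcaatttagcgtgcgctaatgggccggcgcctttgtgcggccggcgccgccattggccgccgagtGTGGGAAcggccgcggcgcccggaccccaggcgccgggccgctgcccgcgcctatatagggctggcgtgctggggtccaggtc
The window held 2 matches, 1 on each strand. Of all 32851 such windows from RefSeq, 1779 held the motif (5.42%), and of the 33 windows of the 28 progenitor genes found there 4 did. A match is a description of these letters, and binding was not measured.

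Several genes of the BMP and TGF-beta pathway, whose ligands act through SMAD proteins and induce the Id genes, rose. Id1 and Id3, inhibitors of basic helix-loop-helix factors counted above in the progenitor list, read 246, 185 and 825 (1.98 ± 0.17) and 169, 168 and 1603 (3.24 ± 0.13, adjusted p = 1.2e-10). Id2 rose by 0.64, while Id4 fell by 0.68, from 5947 and 5347 to 3864. Of 21 pathway genes 17 were tested: 7 rose (41.2%), all by at least 2-fold, and 2 fell (11.8%). Over all genes the shares were 22.3% and 22.7%. Of the 7, Bmp6, Bmp4 and Smad6 passed the brightness filter only through the culture array, so their rise is no support. The list median was 0.42, of opposite sign with genes below the 75th percentile left out. Among ligands, Bmp6 rose from 26.8 and 13.0 to 550 (4.90 ± 0.39, adjusted p = 1.4e-07) and Tgfb2 from 42.8 and 40.6 to 359 (3.18 ± 0.26). Bmp4 (21.9, 19.3, 76.4) and Tgfb3 (48.1, 33.0, 102) rose from dim levels. Of the feedback inhibitors that the pathway induces, Smad6 rose from 11.8 and 25.3 to 109 (2.71 ± 0.51) and Bambi from 64.7 and 74.7 to 386 (2.53 ± 0.22), while Smad7 read 96.5, 122 and 82.3 without a call. Among receptors, Bmpr1a, Bmpr1b, Bmpr2 and Tgfbr2 missed the threshold and Tgfbr1 fell from 1271 and 1498 to 688 (−1.02 ± 0.11), as did the transducer Smad1 by 0.55.

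In the Sonic hedgehog pathway the ligand had the largest difference. Shh itself, the ventral patterning ligand that MGE neurons make, rose from 66.0 and 30.1 to 869 (4.29 ± 0.34, adjusted p = 1.3e-07). Its receptor and target Ptch1 rose from 800 and 834 to 1525 (0.86 ± 0.09), a call lost with averaged probe sets. The receptor component Smo rose by 0.70 and the co-receptor Gas1 by 0.93, and Sufu, a negative regulator, fell by 1.01. Gli1, a direct target, was at the floor in tissue (1.48 and 1.34) and read 19.4 in culture, too dim to test. Gli2, Gli3, Boc and Cdon had no call, with differences of −0.27, −0.28, 0.36 and 0.42. Of 13 hedgehog genes 9 were tested, 4 rose (44.4%) and 1 fell (11.1%). The list median of 0.42 became −0.003 when probe sets were averaged. Of 22 Wnt genes 19 were tested, 4 rose and 6 fell (median −0.12, and 0.02 with median-centred scaling). These shares were 21.1% and 31.6%, against 22.3% and 22.7% over all genes. Lef1, a nuclear factor and target of Wnt signalling, fell from 61.5 and 73.8 to 10.2 (−2.76 ± 0.43), and the feedback target Axin2 from 139 and 94.0 to 63.1 (−0.78 ± 0.28). The ligand Wnt5a rose from 88.6 and 85.3 to 236 (1.51 ± 0.21) and the receptor Fzd5 from 76.8 and 77.6 to 196 (1.42 ± 0.23). Wnt7a and Wnt7b did not pass.

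Cell cycle genes were more often higher than lower. Of 36 tested genes of S phase 14 rose (38.9%) and 2 fell (5.56%), with a median of 0.21. Of 35 of G2 and mitosis 18 rose (51.4%) and 1 fell (2.86%), with a median of 0.39. Over all genes the shares were 22.3% and 22.7%. The kinase Aurkb of the chromosomal passenger complex rose from 309 and 295 to 818 (1.46 ± 0.12), the securin Pttg1 from 1530 and 1466 to 3386 (1.06 ± 0.08) and Cdk1, the mitotic kinase, from 1280 and 1186 to 2521 (0.94 ± 0.09). In S phase, the replication factors Gins2 (193, 189, 598) and Fen1 (270, 302, 704) rose by 1.69 ± 0.15 and 1.32 ± 0.13. Commonly used proliferation markers differed little. Pcna, the DNA polymerase clamp, rose from 6873 and 6197 to 8305 (0.23 ± 0.06, adjusted p = 0.0082). Mki67 read 427, 386 and 415 (0.09 ± 0.13, adjusted p = 0.62), and Top2a read 1102, 1118 and 1125, also without a call. E2f2, an activator of S-phase genes, fell from 99.5 and 106 to 14.5 (−2.83 ± 0.34), and the spindle gene Nusap1 fell by 0.39.

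Targets of p53 were split nearly evenly, with 6 of 14 tested genes higher and 7 lower. These shares were 42.9% and 50%, against 22.3% and 22.7% over all genes. The cell cycle inhibitor Cdkn1a, or p21, rose from 166 and 168 to 394 (1.31 ± 0.16), Ccng1 from 402 and 404 to 1769 (2.10 ± 0.11, adjusted p = 1.1e-09) and the death receptor Fas from 17.6 and 15.7 to 116 (2.84 ± 0.45). Btg2, an anti-proliferative gene of neurogenic progenitors, fell from 807 and 902 to 171 (−2.27 ± 0.12), Trp53inp1 from 1381 and 1352 to 570 (−1.26 ± 0.09) and Mdm2 by 0.78, though that last call was lost with averaged probe sets. All of these culture values lay outside the tissue range.

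Genes of neurite growth and the neuronal cytoskeleton were more often lower than higher. Of 36 listed 34 were tested, 5 rose (14.7%) and 17 fell (50%), against 22.3% and 22.7% over all genes. The median was −0.22, and 0.00 with median-centred scaling. These genes stayed bright in the array labelled as neuronal culture: their summed signal was 114770 and 108600 in tissue and 102080 in culture. Map2, a microtubule protein of dendrites, read 4265, 4072 and 2275 (−0.98 ± 0.07, adjusted p = 5.9e-08). Dcx, the microtubule protein of migrating neurons, read 3586, 3233 and 2079 (−0.81 ± 0.07), and Pak3, a kinase of actin remodelling in neurites, 2674, 2324 and 1264 (−1.06 ± 0.09). The neuronal RNA-binding protein genes Elavl3 and Elavl4 fell by 1.02 and 1.10, and Nefm, a neurofilament gene, from 221 and 185 to 46.6 (−2.03 ± 0.22). Genes of the growth cone membrane went both ways. Basp1 (7887, 7338, 7148), Marcks (9651, 8902, 8535) and Marcksl1 (7430, 8179, 4900) were called lower, by 0.21, 0.22 and 0.78. For Marcksl1, 1 of 4 probe sets was higher, by 0.05. Gap43, in contrast, rose from 1141 and 1147 to 1961 (0.71 ± 0.09, adjusted p = 1.0e-05) and the microtubule regulator Stmn4 from 495 and 476 to 1195 (1.27 ± 0.11). Mapt, which encodes tau, rose by 0.45, but another of its probe sets was lower by 0.13. Stmn1, Tuba1a and Dpysl2, among the brightest of the list, missed the threshold with differences between −0.10 and −0.02.

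Synaptic genes were mixed, with 5 of 30 tested genes higher and 5 lower. Each share was 16.7%, below the 22.3% higher and 22.7% lower over all genes. Rims1, an active zone protein, rose from 46.1 and 53.7 to 110 (1.22 ± 0.30), and Cplx2, which clamps vesicle fusion, fell from 607 and 594 to 254 (−1.19 ± 0.12). The vesicle genes Syp, Syt1, Syn1 and Vamp2 did not pass, with differences of 0.27, 0.04, 0.11 and 0.01. Of 23 tested GABA, glycine and glutamate receptor genes 9 rose (39.1%) and 3 fell (13%), against 22.3% and 22.7% over all genes. The GABA-A subunits Gabra5 (52.7, 44.5, 158) and Gabrb1 (50.1, 35.1, 138) both rose by 1.80, and the glutamate receptor genes Grin3a (31.9, 28.3, 107) and Gria1 (94.8, 95.5, 187) by 1.89 and 1.07. The kainate receptor Grik3 fell from 181 and 184 to 59.7 (−1.54 ± 0.21). Most of these receptor levels were dim in tissue, and the list median of 0.55 became −0.16 when genes below the 75th percentile were left out. Of 21 tested voltage-gated channel genes 5 rose (23.8%, near the 22.3% over all genes) and 2 fell (9.52%, against 22.7%).

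Among 32 tested genes of migration and guidance 8 rose (25%, near the 22.3% over all genes) and 11 fell (34.4%, against 22.7%). The paired receptors of the chemokine CXCL12, which steer migrating interneurons, went opposite ways. Cxcr4, the signalling receptor, rose from 190 and 231 to 800 (1.95 ± 0.15, adjusted p = 8.4e-08), and Ackr3, the scavenging receptor also called CXCR7, fell from 1670 and 1632 to 371 (−2.14 ± 0.09, adjusted p = 2.1e-10). Cxcl12 itself was dim, at 13.4 and 33.3 in tissue and the floor in culture. Secreted cues rose in part: Sema3c from 72.6 and 54.5 to 310 (2.36 ± 0.25), Slit2 from 268 and 230 to 733 (1.59 ± 0.14) and Ntn1 from 385 and 381 to 746 (0.98 ± 0.12), while Slit1 was called lower. Receptors for such cues fell in part, with Epha3 (955, 851, 308) lower by 1.51 ± 0.11, Epha4 (1570, 2144, 701) by 1.42 ± 0.14 and Plxna2 (1004, 976, 514) by 0.93 ± 0.10. Nrp2, a semaphorin receptor of interneurons, fell by 0.86, and Nrp1 read 745, 733 and 682 without a call.

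Metallothioneins and other genes of metal and oxidative stress were higher. A list of 20 genes joined the NRF2 response, the main defence against oxidants, with other stress genes, among them the metallothioneins Mt1, Mt2 and Mt3. Of these 20 genes 16 were tested, 13 rose (81.2%, against 22.3% over all genes), the metallothioneins included, and 0 fell (median 1.15). Mt1 read 223, 208 and 2817 (3.67 ± 0.12, adjusted p = 1.7e-11) and Mt2 333, 352 and 3022 (3.10 ± 0.10). Mt3, the metallothionein typical of brain, read 536, 626 and 4706 (2.94 ± 0.10). Hmox1, which degrades haem, rose from 16.3 and 19.2 to 80.7 (2.23 ± 0.47), Gstm1, a glutathione transferase, from 310 and 298 to 1158 (1.92 ± 0.12) and both subunits of the enzyme that limits glutathione synthesis, Gclc and Gclm, by 1.15 and 1.16. Nqo1 and Txnrd1, also common NRF2 readouts, missed the threshold (73.0, 51.0, 89.1 and 1033, 892, 820).

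The ATF4 response, which raises amino acid supply when it is short, gave 11 higher and 5 lower of 26 tested genes. These shares were 42.3% and 19.2%, against 22.3% and 22.7% over all genes. Eif4ebp1, a repressor of cap-dependent translation, rose from 116 and 127 to 2217 (4.16 ± 0.14, adjusted p = 1.9e-11). Asns, asparagine synthetase, rose from 243 and 235 to 1388 (2.51 ± 0.12, adjusted p = 9.0e-10), and Atf4 itself from 390 and 404 to 824 (1.07 ± 0.12). The serine synthesis enzymes Phgdh and Psat1 rose by 1.08 and 0.74. The cationic amino acid carrier Slc7a1 went the other way, from 720 and 714 to 331 (−1.07 ± 0.11), and Ddit3, or CHOP, read 76.0, 108 and 99.8 without a call. The upstream window of Asns is shown because this gene is the standard example of an ATF4 target. It is chr6:7693210-7693459 on the minus strand of GRCm38.p6, the 250 bases before the RefSeq start, 5′ to 3′, with capitals at the match to the response element motif TGATGNAA.
Asns: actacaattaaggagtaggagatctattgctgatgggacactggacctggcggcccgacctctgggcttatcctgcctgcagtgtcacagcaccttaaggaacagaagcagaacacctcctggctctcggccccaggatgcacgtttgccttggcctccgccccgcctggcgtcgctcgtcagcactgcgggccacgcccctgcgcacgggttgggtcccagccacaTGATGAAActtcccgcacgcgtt
Searched on both strands, 1134 of the 32851 windows held this motif (3.45%), and 6 of the 28 windows of the 25 ATF4 list genes found there did.

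Chaperone genes rose in part. Cryab, a small heat shock protein of glia and muscle, had the second largest rise of all the genes named by size, from 21.0 and 2.27 to 1784 (7.39 ± 0.56, adjusted p = 8.4e-08), with tissue array 2 at the floor. Hspb1 rose from 34.8 and 35.5 to 180 (2.44 ± 0.31), whereas Hspa8 and Hsp90aa1, the abundant cytosolic chaperones, did not pass (0.10 and −0.01). Of 12 tested heat shock genes 8 rose (66.7%) and 2 fell (16.7%), against 22.3% and 22.7% over all genes. In the unfolded protein response of the endoplasmic reticulum 11 of 17 tested genes rose (64.7%) and 1 fell (5.88%), at smaller sizes. Hspa5, or BiP, rose from 3392 and 2928 to 5496 (0.67 ± 0.08) and Manf from 1495 and 1453 to 2864 (0.87 ± 0.08). Of 24 interferon and MHC class I genes 11 were tested, 8 rose (72.7%), all by at least 2-fold, and 1 fell (9.09%). Ifitm3, a membrane protein that restricts virus entry, rose from 98.9 and 117 to 1412 (3.69 ± 0.16), and B2m, the light chain of MHC class I, from 355 and 399 to 1356 (1.83 ± 0.12). Among interferon-induced genes, Ifi35 rose by 3.01, Ifi27 by 2.58, Irgm1 by 1.21 and Irf1 by 1.01, all from dim levels, Ifit3 read 33.7, 30.8 and 35.9 without a call, and Rsad2 fell by 1.07, a call lost under median-centred scaling.

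Lipid synthesis genes were more often higher than lower. Of 20 tested genes of cholesterol synthesis and uptake 11 rose (55%, against 22.3% over all genes) and 0 fell (median 0.43). Among the rises were Insig1 by 0.89 and Msmo1 by 0.76, and the largest was the sterol desaturase Sc5d (156, 140, 413). Of 12 genes of fatty acid synthesis 9 rose (75%) and 1 fell (8.33%, against 22.7% over all genes). Scd1, a desaturase, rose from 83.5 and 95.1 to 783 (3.16 ± 0.18, adjusted p = 4.0e-09), Me1, which supplies NADPH, from 84.4 and 83.4 to 468 (2.53 ± 0.19) and the regulator Srebf1 from 265 and 298 to 980 (1.80 ± 0.13). Acly, which makes cytosolic acetyl-CoA, fell by 0.62.

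Energy genes moved less. Of 37 tested respiratory chain subunits 23 rose and 2 fell, yet 0 by 2-fold (median 0.24, and 0.49 with median-centred scaling). Ndufa5 of complex I rose from 1703 and 1610 to 3143 (0.83 ± 0.08) and Cox5b of complex IV from 6272 and 5560 to 8686 (0.46 ± 0.07). Glycolytic genes gave 7 higher and 5 lower of 16 (43.8% and 31.2%). Aldoa rose from 994 and 1124 to 2207 (0.99 ± 0.10), and Pfkl fell from 245 and 296 to 140 (−0.86 ± 0.17). Genes induced by hypoxia were split, 4 higher and 5 lower of 13 (30.8% and 38.5%, against 22.3% and 22.7% over all genes). Ankrd37 fell from 205 and 164 to 13.1 (−3.81 ± 0.29) and Ddit4, an inhibitor of mTOR complex 1, from 1835 and 1606 to 479 (−1.84 ± 0.10), while the prolyl hydroxylase Egln3 rose from 70.3 and 72.9 to 444 (2.68 ± 0.21). Vegfa, the vessel growth factor, read 173, 164 and 160 without a call. Cytosolic ribosomal proteins were the steadiest list: of 26 tested 1 rose and 2 fell, and the median was −0.01. That median is relative to the scaling and was 0.25 with median-centred arrays.

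Matrix genes and integrins went both ways. Of 35 listed 27 were tested, 13 rose (48.1%) and 7 fell (25.9%), against 22.3% and 22.7% over all genes (median 0.63). Those that rose include Timp3, an inhibitor of matrix proteases (91.0, 106, 515), the collagen Col5a2 (231, 241, 1012), Sparc (1083, 1035, 3237) and the integrin Itgav (250, 215, 498). Basement membrane genes were split: the laminin gene Lamc1 (59.5, 66.6, 207) and the proteoglycan gene Hspg2 (187, 110, 221) rose, the former with a sign that reversed when probe sets were averaged, and another laminin gene, Lamb1, fell (78.7, 73.3, 22.2). Those that fell also include the basement membrane collagens Col4a1 (250, 249, 143) and Col4a2 (139, 161, 60.9), made largely by vessels, and the brain proteoglycans Vcan (481, 449, 93.0), Ncan (2355, 2100, 1334) and Bcan (672, 673, 464). Lysosomal genes rose in 10 of 21 cases (47.6%) and fell in 2 (9.52%). Ctsl, the protease cathepsin L, rose from 950 and 928 to 3225 (1.69 ± 0.09), a call lost with averaged probe sets.

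Immediate early genes, which respond within minutes to activity or growth factors, gave 5 higher and 4 lower of 17 tested (29.4% and 23.5%), shares near the 22.3% and 22.7% over all genes. Nr4a3 rose from 15.0 and 13.9 to 170 (3.60 ± 0.44), Dusp6, a feedback phosphatase of ERK signalling, from 58.8 and 89.98 to 250 (1.85 ± 0.26) and Egr1 from 41.3 and 27.8 to 110 (1.76 ± 0.37). Dusp4, another phosphatase of this kind, fell from 829 and 858 to 110 (−2.89 ± 0.12, adjusted p = 1.6e-10). Fos was too dim on average to test (10.9, 18.9, 85.2), and Jun read 324, 329 and 282 without a call.

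Other genes named by size lay outside the lists. Among rises, Akr1c14, a steroid-reducing enzyme, read 1.28, 14.6 and 1053, with tissue array 1 at the floor, and the galectin Lgals3 read 23.9, 2.12 and 963, with tissue array 2 at the floor. Vgll3, a cofactor of TEAD factors, the DNA-binding partners of YAP, rose from 30.1 and 15.1 to 1246 (5.82 ± 0.34). The augurin precursor Ecrg4 went from 31.6 and 30.6 to 1860 (5.87 ± 0.22, adjusted p = 4.1e-11), the peptidase Mme from 15.3 and 9.61 to 458 and the binding protein Igfbp3 from 27.3 and 16.1 to 699. Col8a1, a short-chain collagen, rose from 15.47 and 8.32 to 379. Among falls, the amino acid carrier Slc38a5 (208, 230, 1.22) and the lipocalin Apod (159, 141, 4.13) were at the floor in culture, at least 42.0-fold and 28.5-fold lower.

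**Figure D5:**
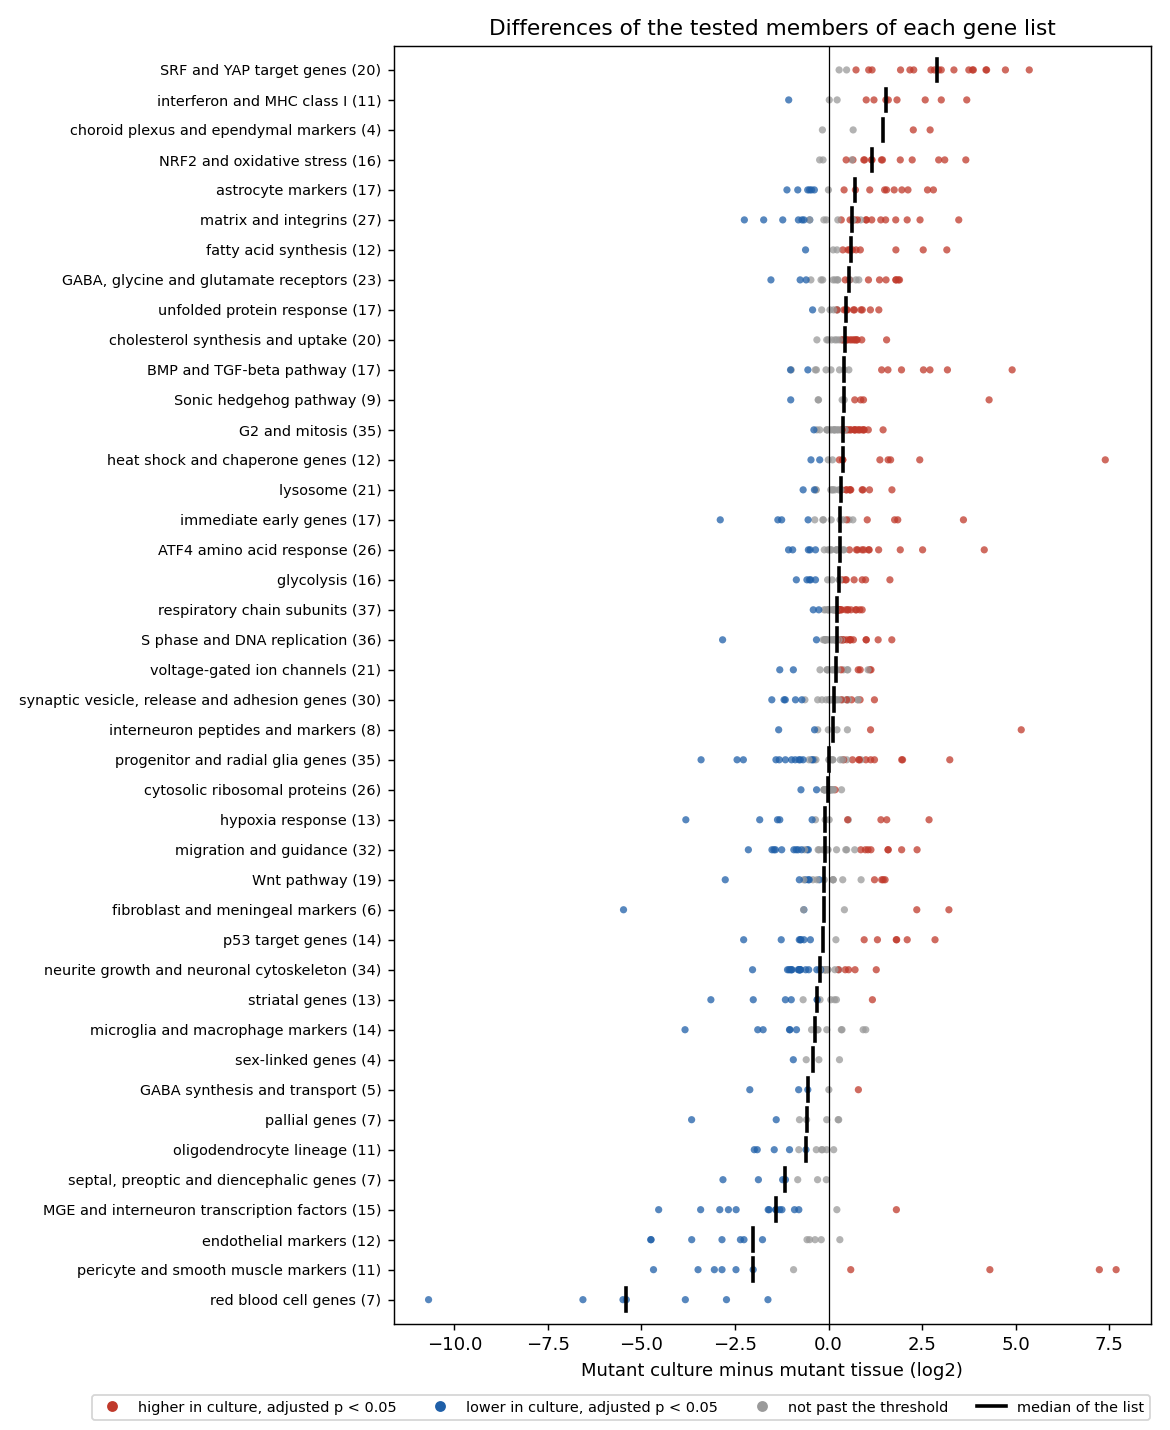
Culture minus tissue difference on the log2 scale for every tested member of each gene list (number tested in brackets), coloured by limma's call, with the list median as a bar; lists are ordered by that median. SRF and YAP targets lie highest with a median of 2.89, and red blood cell, mural, endothelial and MGE factor lists lie lowest, with medians from −5.40 to −1.41, although the mural median of −2.01 was 4.31 with genes below the 75th percentile left out.

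Control probe sets were compared as log2 of the deposited signals, without quantile normalization or floor, and those of bright genes differed little. The control probe sets at the 3′ and 5′ ends of Gapdh were higher in culture by 0.26 and 0.23, and those of beta-actin by 0.14 and 0.20. Those of the dim control genes, pyruvate carboxylase and transferrin receptor, differed by −0.77 to 2.81. The highest was in a probe set that read 3.09, 3.58 and 23.3, with both tissue values under the floor used for the other genes. Sex-linked genes were present in all 3 arrays: Xist read 106, 143 and 97.2 and the Y-linked Eif2s3y 174, 181 and 206, both without a call, while Y-linked Kdm5d fell from 161 and 132 to 71.6 (−0.94 ± 0.23). The share of genes called grew with brightness, from 25.4% in the dimmest of 4 equal groups of tested genes to 64% in the brightest, as the SD of the tissue gap shrank from 0.523 to 0.123. Of 2614 called genes with further probe sets 78.8% had them change in the same direction, and of the 703 with at least a 2-fold difference 89.5%. Among 2463 genes without a call that had further probe sets, the share was 51.8%.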

How the data were processed

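The deposited values are intensity on a linear scale, 1 for each probe set of an array, and these values show that each array was scaled to the same mean after trimming 2% at each end (150.001). The labels name no software for this, and detection calls were not analysed here. Members and gene lists were chosen with earlier results of these data known.

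Probe sets with 1 gene symbol in the platform annotation (34945 of 45101, with 932 carrying several and 9160 none here) gave 18193 genes. Tests left out the 64 control probe sets, and 34741 probe sets matched the RefSeq table by Entrez identifier, with 0 symbols updated. The 3 arrays were quantile normalized, floored at the pooled 20th percentile and put on the log2 scale. Brightness was the mean over the 3 arrays, culture included. The brightest probe set stood for each gene, and genes above the pooled median were tested. The test was limma 3.58.1 in R 4.3.3 (trended prior, 1 residual and 13.5 prior degrees of freedom, Benjamini-Hochberg threshold 0.05). The same fit was also run on simulated data, built from the means and spread of the real tissue arrays. All 3 simulated arrays took the tissue spread, so the assumed spread of the culture was not tested. The number of arrays limits precision.

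Named genes were the 12 highest and 12 lowest past the threshold, at least 2-fold beyond both tissue arrays and at or above the pooled 75th percentile on the brighter side, up to 4 called members in each direction of each of 43 lists (985 genes, 904 with a probe set), and a set of marker genes. Genes named outside this rule were chosen after their values were seen. Alternatives covered scaling, floor, filter, probe set choice, prior variance and leaving out each tissue array. The 2 wild-type arrays were left out because the comparison is within mutants.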

Additional observations from a re-analysis of the deposited data

How the results depend on the processing

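No paired analysis was possible because the culture group holds 1 array and shares fewer than 2 replicate numbers with tissue. Deposited and median-centred scaling, a lower floor, log2(value + 16) and a robust prior kept every count of genes within 1.5 times. With no filter on dim genes, 598 genes were called higher and 99 lower, 415 and 79 of them at least 2-fold, while 1574 and 1091 lay 2-fold beyond both tissue arrays and 2212 and 1547 differed by 2-fold without a test. The prior degrees of freedom then fell to 0.739. With the filter at the 75th percentile, which tests fewer genes, 412 and 397 were called with a 2-fold difference, 412 and 397 differed by 2-fold and 362 and 317 lay beyond both. Averaging probe sets gave 1468 and 1625 calls, and a prior without trend 1359 and 1341. The cause was not tested. Leaving out a tissue array gives no test, and genes differing by 2-fold then numbered 1015 to 1064 higher and 736 to 766 lower, against 994 and 730. Of the 5011 calls, 4769 kept direction and call with deposited scaling, 4409 with median centring, 2564 without trend, 2886 with averaged probe sets (6 reversed) and 199 without the filter. Of 251 called named genes, 35 kept direction and call in every alternative that tested them. Leaving aside the unfiltered alternative, 180 did. Signs reversed for Atp5a1 (0.038 median-centred, 0.047 with averaged probe sets) and, with averaged probe sets, for Eif2s3y (−0.11), Lamc1 (−0.034), Scarb2 (0.070), Stx1a (−0.063) and Uqcrq (−0.13). Dim genes limit detection, since the SD of the tissue gap was 0.523 in the dimmest of 4 equal groups.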

Other observations

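Among genes outside the lists, chosen after their values were seen, neighbours on chromosome 19 stood out. Rln1 and Insl6, which encode relaxin-family peptide hormones and lie side by side in the RefSeq table, both rose in culture. Rln1 had signals of 24.5 and 11.7 in tissue and 503 in culture (4.91, 30.0-fold, limma adjusted p = 2.1e-07). Insl6 had signals of 15.3 and 38.9 in tissue and 336 in culture (3.85, 14.4-fold, limma adjusted p = 5.2e-06). In both, the culture array was clear of both tissue arrays. The protein-coding genes on either side were called at far smaller sizes, the kinase gene Jak2 with a difference of 0.45 and Plgrkt with 0.40. Each gene was read by its brightest probe set.

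Probe sets of the same gene rarely went opposite ways by a wide margin. Of 5077 genes with at least 2 probe sets above the filter, 1047 had a probe set at least 2-fold beyond both tissue arrays, and 7 had probe sets beyond them in opposite directions: 1810058I24Rik, Cald1, Lbh, Mtm1, Rragd, Tmed5 and Zfp651. In Tmed5, a gene of vesicle transport, 1 probe set read 52.8, 68.1 and 10.6 (−2.53) and another 240, 260 and 522 (1.11). In Mtm1, the phosphoinositide phosphatase myotubularin, 2 probe sets were lower, by 1.52 and 1.23 on the log2 scale, and 1 was higher by 1.17. Which transcripts these probe sets read was not analysed here.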
